A study of Mus musculus with 9 samples.

Results

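The genes of the mitochondrial respiratory chain and ATP synthase were read across 9 poly-A RNA libraries of J774A.1, an established mouse macrophage line. They were picked by name from the deposited table (mt-Nd, mt-Co, mt-Cytb and mt-Atp genes, and the Nduf, Sdh, Uqcr, Cox4 to Cox8 and Atp5 families), leaving out 9 names that end in -ps, which marks a pseudogene. The choice gave 99 of the 26157 genes listed. The mitochondrial genome encodes 13 of them and the nuclear genome 86, of which 85 are subunits by complex and 1, Cox7a2l, is an assembly factor of supercomplexes that was kept out of the sums and medians by complex. Cells of the Q11 group (3 libraries) received Q11, a CYP2E1 inhibitor by the series title, at the same time as IL-4 and IL-13. Cells of the M2 group (3 libraries) received IL-4 and IL-13, each at 10 ng/mL, which the labels call induction to M2 macrophages. Control cells (Ctrl, 3 libraries) were cultured without them. Nothing read here gives the dose of Q11, the cytokine dose beside Q11 or the length of treatment. Nothing says whether the libraries of a group came from separate cultures, so p-values measure only the spread between these samples.

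The respiratory chain passes electrons from NADH (complex I) and succinate (complex II) through complex III to oxygen at complex IV, and the proton gradient this builds drives the ATP synthase, complex V. Complexes I, III, IV and V are built from subunits of both genomes, whereas complex II is wholly nuclear. Macrophages activated by IL-4 are known for their reliance on oxidative phosphorylation, in contrast to macrophages activated by bacterial products.

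The deposited values are TPM (transcript abundance scaled for gene length and library total). The gene lengths that fit these values span all annotated exons of a gene, which can exceed the length of its transcripts. Levels of different genes therefore compare only roughly. Reads recovered from them came to 15815847 to 17095787 in 8 libraries and 32193523 in Q11 replicate 2. Of 19252 genes read in Q11 replicate 3, only 11 had fewer reads in Q11 replicate 2, against 1929 to 2413 genes when Q11 replicate 2 was set beside the other 7 libraries. The Q11 replicates 2 and 3 are therefore not independent, and Q11 results are given also with the shared reads taken out of replicate 2 ("separated"), a choice made after seeing the data. The 9 macrophage markers summed to 7863 to 7928 TPM in Q11 libraries, 7485 to 8088 TPM in M2 libraries and 11440 to 11850 TPM in control libraries. Fibroblast, epithelial, endothelial, T cell, B cell, hepatocyte and muscle markers present in the table each summed to at most 3.007 TPM in any library. The part of this macrophage marker difference in the results below was not tested. In bulk RNA, fewer cells with a transcript and less of it per cell cannot be told apart.

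Of the 99 genes, 93 reached at least 1 TPM in at least 3 libraries and were tested: all 13 mitochondrially encoded genes and 80 nuclear genes. The 6 that did not were the processed pseudogenes Ndufa11b, Ndufb4c and Cox6c2, and Cox6b2, Cox8b and Ndufa4l2, forms known from testis, muscle and hypoxic cells. The mitochondrially encoded genes took up 6.385% to 6.704% of all TPM in Q11 libraries, 5.268% to 6.268% in M2 libraries and 6.303% to 6.519% in control libraries. The nuclear genes took up 1.857% to 1.938% in Q11 libraries, 1.936% to 2.023% in M2 libraries and 1.85% to 1.907% in control libraries. The summed TPM of the 13 mitochondrial genes was thus above that of all nuclear subunits together in every library.

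The mitochondrially encoded genes fell into 2 ranges of level. mt-Co1, the catalytic subunit of complex IV, stood highest of all genes in each of the 9 libraries, with a mean of 17185 TPM, followed by mt-Cytb, the cytochrome b of complex III, with 15112 TPM. The complex I genes mt-Nd1, mt-Nd2, mt-Nd5, mt-Nd4 and mt-Nd6 averaged 11006, 7191, 4478, 3845 and 3146 TPM. The other 6 genes were far lower, with means of 236 TPM for mt-Co2, 161 TPM for mt-Atp6, 107 TPM for mt-Co3, 57.3 TPM for mt-Nd4l, 52.3 TPM for mt-Atp8 and 16.8 TPM for mt-Nd3.

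**Figure D1:**
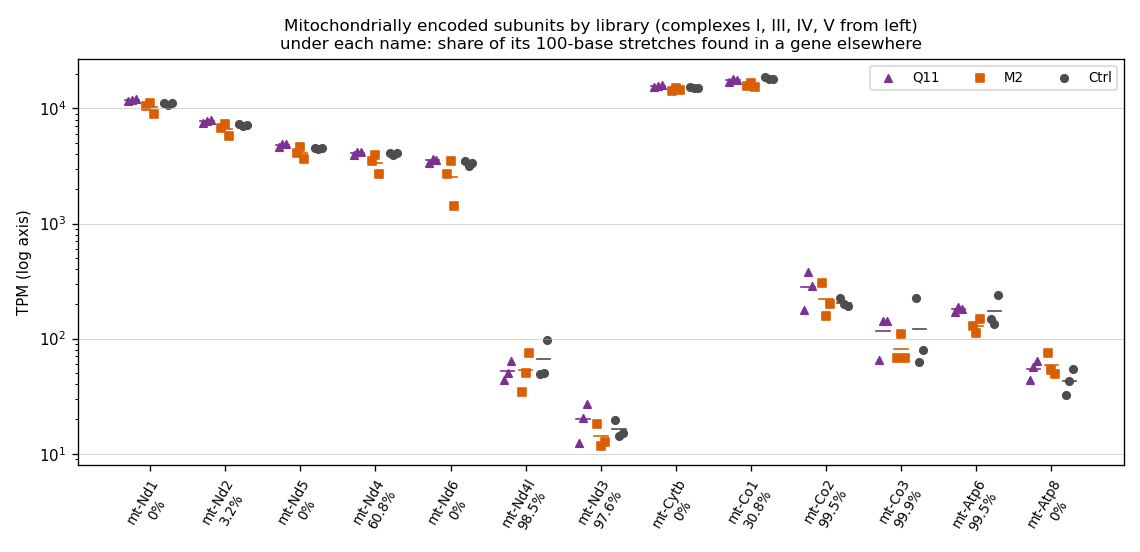
TPM of the 13 mitochondrially encoded subunits (log axis), with 1 point per library, triangles for Q11, squares for M2 and circles for Ctrl, and a short bar at each group's mean. The percent under a name is the share of the gene's 100-base stretches that also stand in an annotated gene elsewhere in the genome, and the 5 genes with 97.6% or more lie between 11.7 and 378 TPM, while M2 replicate 3 is the lowest square for mt-Nd1, mt-Nd2, mt-Nd4, mt-Nd5 and mt-Nd6.

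These low genes share their sequence with a nuclear copy of mitochondrial DNA. In GRCm38, annotated pseudogenes on the minus strand of chromosome 1, from Gm28439 (chr1:24611535-24612410) to Gm29216 (chr1:24615706-24616197), carry copies of 7 mitochondrially encoded subunit genes. Of the 100-base stretches of mt-Nd4l, 98.5% also stand in an annotated gene elsewhere in the genome, and the share was 99.5% for mt-Co2 and mt-Atp6, 99.9% for mt-Co3 and 97.6% for mt-Nd3. Over 681 aligned bases, mt-Co2 (chrM:7013-7696, plus strand) and Gm28661 (chr1:24614885-24615565) did not differ at any base. The shares were 60.8% for mt-Nd4, 30.8% for mt-Co1, 3.2% for mt-Nd2 (with Gm13339 on chromosome 2) and 0% for mt-Nd1, mt-Nd5, mt-Nd6, mt-Cytb and mt-Atp8. The first 60 bases of mt-Co2 and of mt-Nd3 (chrM:9459-9806) with its copy Gm28438 (chr1:24612775-24613119), and bases 1054 to 1113 of mt-Co1 (chrM:5328-6872) with those of Gm29216, show how little separates a gene from its copy. Capitals mark the bases that differ within a pair, and all 6 differences of the 492 bases aligned between mt-Co1 and Gm29216 lie in the stretch shown.
mt-Co2 and Gm28661: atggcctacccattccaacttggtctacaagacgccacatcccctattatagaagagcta
mt-Nd3: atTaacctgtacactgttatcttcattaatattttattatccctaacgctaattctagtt
Gm28438: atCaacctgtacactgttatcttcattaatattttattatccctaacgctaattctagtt
mt-Co1: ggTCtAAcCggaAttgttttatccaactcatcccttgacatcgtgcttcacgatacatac
Gm29216: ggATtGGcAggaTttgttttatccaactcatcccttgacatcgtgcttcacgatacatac

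The copies carried reads of their own in the deposited table, with mean TPM of 195 for Gm28661, 166 for Gm10925 (the copy of mt-Atp6), 154 for Gm28438, 151 for Gm28437 (the copy of mt-Co3) and 60.3 for Gm10222 (the copy of mt-Nd4l). Reads that match a gene and its copy equally well cannot be told apart, and no source read here says how the authors' counting treated them. The levels of mt-Co2, mt-Co3, mt-Atp6, mt-Nd3 and mt-Nd4l are for that reason uncertain. mt-Atp8 has no annotated copy, but it lies in the mitochondrial genome between mt-Co2 and mt-Atp6 and overlaps mt-Atp6, and its level is uncertain too. The 7 other genes carry nearly all of the mitochondrially encoded TPM, and the sums below rest on them. mt-Nd6 lies on the minus strand (chrM:13552-14070) and its end overlaps that of mt-Nd5 (chrM:11742-13565) on the plus strand. No source read here says whether the counting used strand. Without strand, their shared bases could not be assigned, and plus-strand reads anywhere across mt-Nd6 would count as its own. The level of mt-Nd6 is therefore uncertain as well.

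The mean levels of the tested nuclear subunits ran from 1.3 TPM (Cox4i2) to 1073 TPM (Cox8a). The median of the mean TPM was 130 over the 36 nuclear complex I genes tested, 201 over the 4 of complex II, 244 over the 8 of complex III, 281 over the 14 of complex IV and 218 over the 17 of complex V. The 5 highest were Cox8a (1073 TPM), the ATP synthase beta subunit Atp5b (1043 TPM), Cox4i1 (1007 TPM), Cox6a1 (950 TPM) and the ATP synthase alpha subunit Atp5a1 (893 TPM). The lowest complex I gene was Ndufb2, at 2.7 to 4.0 TPM in all libraries, over an exon model of 5628 bases. At complex II, the membrane anchor Sdhd (529 TPM) stood above the flavoprotein Sdha (232 TPM), the iron-sulfur subunit Sdhb (170 TPM) and the other anchor, Sdhc (156 TPM). Their exon models are 1231, 4126, 2239 and 3250 bases, in that order.

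In M2 against control cells, 11 nuclear subunit genes rose and 1 mitochondrially encoded gene fell. Of the 79 nuclear subunit genes tested, 63 had a log2 change above 0, and the 11 that rose passed an adjusted p of 0.05 (limma on log2(TPM + 1), Benjamini-Hochberg over all genes), while none fell. Of the 13 mitochondrially encoded genes, 11 had a log2 change below 0 and 1, mt-Co1, fell. The median log2 change was 0.07 for the nuclear and -0.20 for the mitochondrially encoded genes, against 0.00 for all 14207 genes tested. The mitochondrially encoded median was -0.12 without M2 replicate 3 or Ctrl replicate 1 and -0.13 without Ctrl replicate 3. Over all genes 6.88% were called higher and 5.75% lower, so 11 of 79 (13.9%) is a larger share than the background and 1 of 13 (7.69%) is near it. Most nuclear subunits are abundant, however, and among the 1904 genes that averaged 100 TPM or more, 19.6% were called higher. Of the 61 nuclear subunit genes at that level, 11 (18%) were. The share of nuclear subunits that rose is therefore close to that of other abundant genes. The share called lower among abundant genes was not counted, so the fall of mt-Co1 was not set beside it.

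The count of 11 also changed with the libraries and the fit. It was 6 without Ctrl replicate 1, 5 without Ctrl replicate 3, 5 without M2 replicate 3, 6 without Q11 replicate 2 and 7 without Q11 replicate 3. It was 7 with the shared reads separated and 5 when only the M2 and control libraries were fitted, and up to 15 when genes were kept only from 5 TPM. Ndufs8, Uqcrc1 and Atp5a1 were called whichever library was left out.

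**Figure D2:**
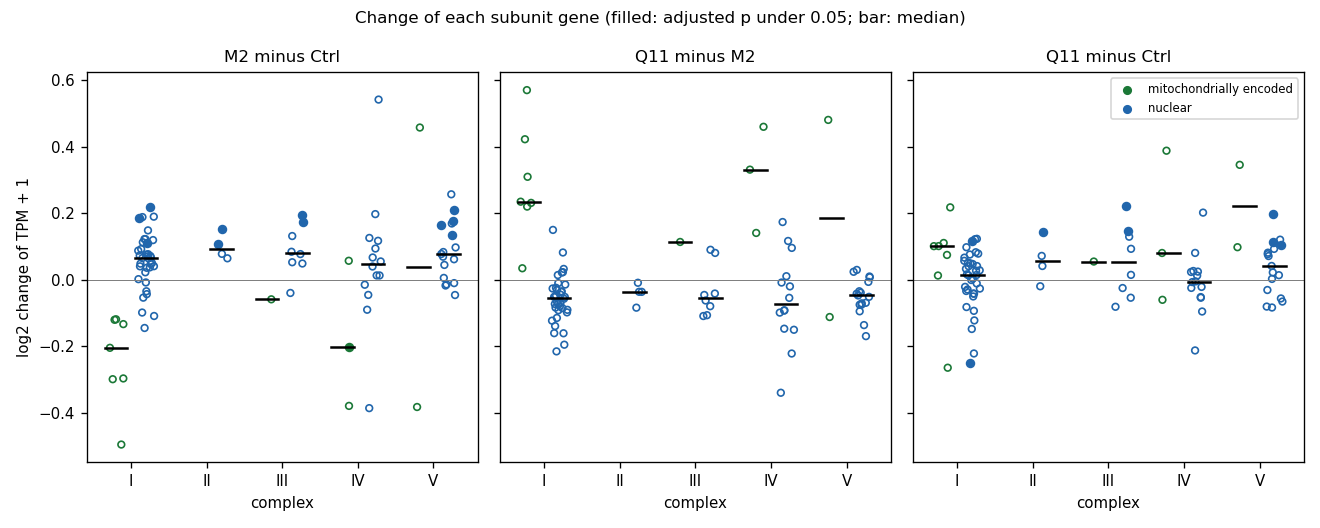
Log2 change of TPM + 1 for each subunit gene by complex, with mitochondrially encoded genes in green and nuclear genes in blue, in M2 minus Ctrl, Q11 minus M2 and Q11 minus Ctrl. Filled points passed an adjusted p of 0.05 and bars are medians, and in M2 minus Ctrl the complex I medians are -0.20 for mitochondrially encoded and 0.07 for nuclear genes, against 0.23 and -0.05 in Q11 minus M2.

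At complex I, the medians of the mitochondrially encoded and the nuclear genes stood on opposite sides of 0. All 7 mitochondrially encoded genes were below 0 in M2 cells (median -0.20, and -0.12 without M2 replicate 3) and none passed the test. Of 36 nuclear genes, 29 were above 0 (median 0.07) and 3 (8.33%) rose. That share is near the 6.88% of all genes and below the 19.6% of genes at 100 TPM or more. Ndufs8, an iron-sulfur core subunit, had 271, 265 and 258 TPM in M2 libraries, against 234, 235 and 230 TPM in control libraries. Every M2 library was above every control library, and the log2 change was 0.19 ± 0.03 (SE, limma adjusted p = 0.0025). The accessory subunit Ndufb10 had 270, 276 and 285 TPM in M2 libraries, against 220, 250 and 245 TPM in control libraries, a log2 change of 0.22 ± 0.05 (SE, limma adjusted p = 0.019). The groups did not overlap, but the call was lost without M2 replicate 3 (limma adjusted p = 0.059). Ndufa10, another accessory subunit, averaged 139 ± 1.94 TPM in M2 cells and 129 ± 2.75 TPM in control cells (SD, n = 3 each; limma adjusted p = 0.041), and it was no longer called when any of 7 libraries was left out. Ndufa1 lay at the other end of the nuclear genes, with a log2 change of -0.15 that did not pass the test.

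The mitochondrially encoded complex I genes differed widely between M2 libraries. mt-Nd6 had 2716, 3524 and 1405 TPM in M2 libraries, against 3521, 3166 and 3380 TPM in control libraries. M2 replicate 2 lay just above the highest control library and M2 replicate 3 far below the lowest, and the log2 change of -0.50 ± 0.27 (SE) had a limma adjusted p of 0.29. mt-Nd4 had 3483, 3902 and 2680 TPM in M2 libraries, against 4134, 3974 and 4109 TPM in control libraries, a log2 change of -0.30 ± 0.11 (SE, limma adjusted p = 0.13). mt-Nd1 averaged 10190 ± 1192 TPM in M2 cells and 11015 ± 220 TPM in control cells (SD, n = 3 each), and mt-Nd2 and mt-Nd5 had log2 changes of -0.13 and -0.12. Over the 7 mitochondrial genes with few or some copies elsewhere (mt-Nd1, mt-Nd2, mt-Nd4, mt-Nd5, mt-Nd6, mt-Cytb and mt-Co1), the median log2 change was -0.13 with all libraries and -0.05 without M2 replicate 3. All 7 were below 0 either way. The part of M2 replicate 3 in these changes beyond these values was not tested.

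At complex II, which has no mitochondrially encoded subunit, all 4 genes were above 0 in M2 cells and 2 rose. The share called higher was 6.88% over all genes and 19.6% over genes at 100 TPM or more, but 4 genes are few for a share. Sdhd had 515, 556 and 577 TPM in M2 libraries, against 494, 494 and 491 TPM in control libraries. The groups did not overlap, and the log2 change was 0.15 ± 0.04 (SE, limma adjusted p = 0.030). Sdha had 242, 235 and 242 TPM in M2 libraries, against 221, 228 and 218 TPM in control libraries, a log2 change of 0.11 ± 0.03 (SE, limma adjusted p = 0.036). Sdhb and Sdhc had log2 changes of 0.06 and 0.08 and did not pass. Sdhd lost its call when any of 7 libraries was left out and Sdha when any of 6 was, with adjusted p reaching 0.084 and 0.11. With the shared reads separated, Sdhd kept its call (limma adjusted p = 0.040) and Sdha did not (limma adjusted p = 0.054).

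At complex III, 7 of 8 nuclear genes were above 0 and 2 (25%) rose in M2 cells, against 6.88% of all genes and 19.6% of those at 100 TPM or more. Uqcrc1, a core subunit, had 247, 241 and 257 TPM in M2 libraries, against 215, 216 and 219 TPM in control libraries. The groups did not overlap, and the log2 change was 0.19 ± 0.03 (SE, limma adjusted p = 0.0025). Uqcr11, a small subunit, averaged 293 ± 9.04 TPM in M2 cells and 260 ± 9.47 TPM in control cells (SD, n = 3 each; limma adjusted p = 0.018). It was not called without Ctrl replicate 1 or Ctrl replicate 2, nor with the shared reads separated (limma adjusted p = 0.070). Uqcrq was the only nuclear gene of complex III below 0, with a log2 change of -0.04. mt-Cytb had 14164, 15003 and 14385 TPM in M2 libraries, against 15264, 15143 and 14948 TPM in control libraries, a log2 change of -0.06 ± 0.03 (SE) that did not pass (limma adjusted p = 0.29).

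Complex IV held the only mitochondrially encoded gene that passed the test and no nuclear gene that did. mt-Co1 had 15651, 16594 and 15331 TPM in M2 libraries, against 18620, 17979 and 18063 TPM in control libraries. All M2 libraries lay below all control libraries, and the log2 change was -0.20 ± 0.04 (SE, limma adjusted p = 0.011). The adjusted p was 0.053 without Ctrl replicate 1, and 0.0058 to 0.053 over the 9 fits that each left out 1 library. Of 14 nuclear complex IV genes, 10 were above 0, with a median log2 change of 0.05 and a smallest limma adjusted p of 0.059. That was Cox7a2, with 362, 390 and 376 TPM in M2 libraries, against 351, 351 and 339 TPM in control libraries. mt-Co2 and mt-Co3 had log2 changes of 0.06 ± 0.29 and -0.38 ± 0.47 (SE), within their spread.

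At complex V, 13 of 17 nuclear genes were above 0 and 4 (23.5%) rose in M2 cells, against 6.88% of all genes and 19.6% of those at 100 TPM or more. Atp5a1 had 931, 912 and 972 TPM in M2 libraries, against 850, 840 and 820 TPM in control libraries. No M2 library reached down to a control library, and the log2 change was 0.16 ± 0.03 (SE, limma adjusted p = 0.0065). Atp5b had 1076, 1064 and 1117 TPM in M2 libraries, against 1009, 985 and 972 TPM in control libraries, a log2 change of 0.13 ± 0.03 (SE, limma adjusted p = 0.018). These 2 genes encode the subunits of the catalytic head. The other calls were the stalk subunit Atp5d and Atp5g3, 1 of 3 genes for the ring-forming subunit c, with limma adjusted p of 0.044 and 0.035, and each was lost when any of 7 libraries was left out. At the ends of the genes that did not pass stood Atp5e (log2 change -0.05) and Atp5g1 (0.26, limma adjusted p = 0.068). mt-Atp6 and mt-Atp8 had log2 changes of -0.38 and 0.46 and did not pass.

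**Figure D3:**
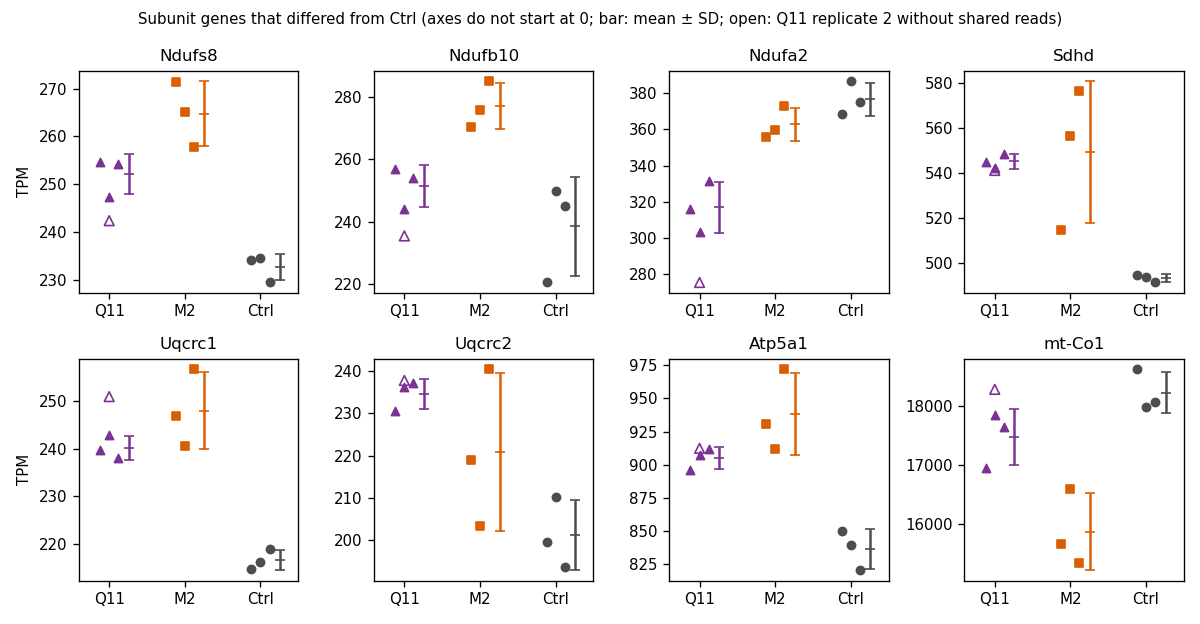
TPM per library of 8 subunit genes called against Ctrl in M2 or Q11 cells, with Q11, M2 and Ctrl from left to right, bars for the mean ± SD (n = 3) and axes that do not start at 0. The open triangle is Q11 replicate 2 with the shared reads taken out. Ndufs8 lies at 258 to 271 TPM in M2 and 230 to 235 TPM in Ctrl libraries, and Ndufa2 at 304 to 332 TPM in Q11 and 368 to 387 TPM in Ctrl libraries.

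The sums of the mitochondrially encoded and nuclear genes were also set against each other within single libraries. A ratio alone does not show which of its sums differs. In M2 replicate 2 the mitochondrially encoded sum lay within the control range at complex I (30650 TPM, against 29460 to 30680 TPM). The same held at complex III (15000 TPM, against 14950 to 15260 TPM). The ratio of mitochondrially encoded to nuclear subunit TPM, which does not depend on how a library is scaled, was 3.05, 3.21 and 2.65 in M2 libraries, against 3.59, 3.37 and 3.46 in control libraries. All M2 libraries were below all control libraries, and the difference of the mean log2 ratios was -0.23. Leaving out 1 library at a time gave -0.29 to -0.15, the last without M2 replicate 3, and the difference was given no test. At complex IV the ratio was 2.87, 2.91 and 2.70 in M2 libraries, against 3.54, 3.27 and 3.29 in control libraries. At complex III it was 7.28, 7.44 and 6.96 in M2 libraries, against 8.26, 7.95 and 7.85 in control libraries, also without overlap. At complex I it was 5.00, 5.41 and 3.94 in M2 libraries, against 5.79, 5.37 and 5.62 in control libraries, and there M2 replicate 2 lay within the control range. At complex V the ratio was 0.0378 ± 0.00405 in M2 cells and 0.0469 ± 0.0145 in control cells (SD, n = 3 each), but both of its mitochondrially encoded genes are among those of uncertain level. The nuclear sum of complex II was 1086 to 1165 TPM in M2 libraries and 1026 to 1055 TPM in control libraries.

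**Figure D4:**
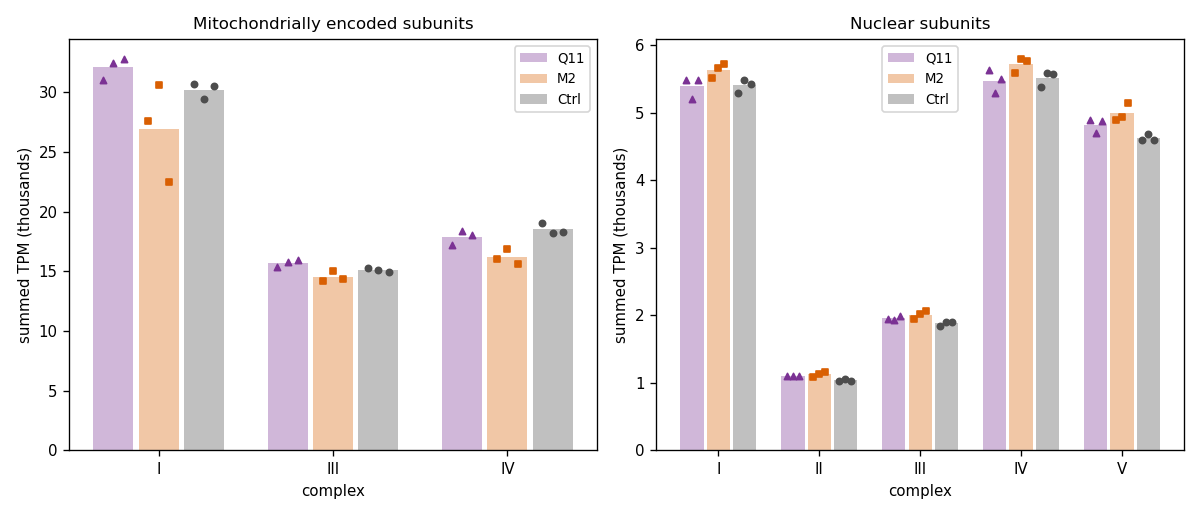
Summed TPM of mitochondrially encoded (left) and nuclear (right) subunits by complex, with points for libraries and bars for group means, Q11, M2 and Ctrl from left to right. Complex V is left out of the left panel, where its sum is below 293 TPM, and at complex IV the mitochondrially encoded sums are 15600 to 16860 TPM in M2 and 18240 to 19070 TPM in Ctrl libraries.

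In Q11 against M2 cells, most mitochondrially encoded genes were above 0 and most nuclear genes below 0, but no subunit gene passed the test. Over all genes 0% were called in this comparison (limma), and 1620 of 14207 had an unadjusted p under 0.05. Of the mitochondrially encoded genes 12 of 13 had a log2 change above 0, with a median of 0.23, and 7 had an unadjusted p under 0.05. Of the nuclear subunit genes 63 of 79 were below 0, with a median of -0.05, and 11 had an unadjusted p under 0.05, against a median of 0.00 for all genes. The nuclear median was -0.03 without Q11 replicate 2 and -0.07 with the shared reads separated. Counts of reads fitted with limma-voom called 1 gene, mt-Co1, higher, and over all 13988 genes in that fit 1 was called higher and 1 lower. The fit kept the reads that Q11 replicate 2 shares with Q11 replicate 3. The M2 libraries serve both this comparison and the one with control cells, so the values of the 2 are not independent.

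Single genes showed how far the groups stood apart. mt-Co1 had 16940, 17847 and 17640 TPM in Q11 libraries, against 15651, 16594 and 15331 TPM in M2 libraries. The groups did not overlap, and the log2 change was 0.14 ± 0.04 (SE, limma adjusted p = 0.32). mt-Cytb had 15397, 15786 and 15923 TPM in Q11 libraries, against 14164, 15003 and 14385 TPM in M2 libraries, with a log2 change of 0.11 ± 0.03 (SE, limma adjusted p = 0.32). mt-Nd6 had 3359, 3644 and 3595 TPM in Q11 libraries, against 2716, 3524 and 1405 TPM in M2 libraries, and these overlapped. Its log2 change of 0.57 ± 0.27 (SE) was the largest of the 13, with a limma adjusted p of 0.46. In all, 6 of 13 mitochondrially encoded genes (46.2%) were higher in every Q11 library than in every M2 library, and 9.18% of all genes were. One of the 6, mt-Atp6, is of uncertain level. Both shares keep the reads that Q11 replicates 2 and 3 have in common, and the share among other abundant genes was not counted. The larger share is therefore not read as a trait of these genes. Without M2 replicate 3 the median log2 change of the 13 genes was 0.16, and 0.22 once the shared reads were separated.

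Among the nuclear genes below M2 cells were small accessory subunits of complex I and subunits of complex IV. Ndufa3 had 135, 120 and 135 TPM in Q11 libraries, against 153, 148 and 152 TPM in M2 libraries. The groups did not overlap, and the log2 change was -0.22 ± 0.05 (SE, limma adjusted p = 0.29). Ndufa2 had 316, 304 and 332 TPM in Q11 libraries, against 356, 360 and 373 TPM in M2 libraries, with a log2 change of -0.20 ± 0.04 (SE, limma adjusted p = 0.26). Cox6b1 averaged 724 ± 33.8 TPM in Q11 cells and 802 ± 10.5 TPM in M2 cells, and Cox7b 244 ± 8.93 TPM in Q11 cells and 271 ± 10.3 TPM in M2 cells (SD, n = 3 each), with log2 changes of -0.15 for each (limma adjusted p = 0.31). In 13 of the 80 nuclear genes tested (16.2%) every Q11 library was below every M2 library, and 8.43% of all genes stood that way. The share among other abundant genes was not counted, so the larger share is not read as a trait of the nuclear subunits. Both shares keep the reads that Q11 replicates 2 and 3 have in common. In none of these 80 tested genes was every Q11 library above every M2 library. The other ends of the range that did not pass were Uqcr10 (log2 change -0.11), Atp5d (-0.17), Sdhb (-0.08) and the little-read Cox6a2 (-0.34) below M2 cells, and Ndufb3 (0.15), Uqcrc2 (0.09), Atp5o (0.03) and Cox4i2 (0.17) above them. At complex II, Sdhd was nearest to 0 (-0.01). The ratio of mitochondrially encoded to nuclear TPM was 3.35, 3.67 and 3.54 in Q11 libraries, against 3.05, 3.21 and 2.65 in M2 libraries, and 3.82 in Q11 replicate 2 with the shared reads separated. The difference of the mean log2 ratios was 0.25, and 0.17 to 0.31 when 1 library was left out.

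Set against control cells, Q11 cells had higher transcripts of some nuclear subunits and lower transcripts of Ndufa2. Of 79 nuclear subunit genes, 7 (8.86%) rose and 1 (1.27%) fell (limma), against 5.19% of all genes called higher and 5.53% lower. All of these calls were among the 61 nuclear subunit genes at 100 TPM or more (11.5% higher and 1.64% lower). The share called among other abundant genes was not counted in this comparison, so the larger share called higher is not read as a trait of these genes. No mitochondrially encoded gene passed, and their smallest limma adjusted p was 0.35 with 0 of 13 at an unadjusted p under 0.05. The median log2 change was 0.02 for nuclear genes, 0.10 for mitochondrially encoded genes and 0.00 for all genes. The nuclear median changed its sign, to -0.0039 with the shared reads separated (39 genes above 0 and 40 below) and to -0.0042 without Ctrl replicate 1, and it was 0.04 without Q11 replicate 2. Without any other single Q11 or control library it lay between 0.0047 and 0.03. The mitochondrially encoded median was 0.06 without Ctrl replicate 2, Q11 replicate 2 or Q11 replicate 3. The ratio of mitochondrially encoded to nuclear TPM averaged 3.52 ± 0.158 in Q11 cells and 3.47 ± 0.112 in control cells (SD, n = 3 each), a difference of 0.02 on the log2 scale that was -0.01 without Q11 replicate 2, -0.0029 without Ctrl replicate 2, 0.05 without Q11 replicate 1 and 0.04 without Ctrl replicate 1 or with the shared reads separated.

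Ndufa2, a small accessory subunit of the NADH-oxidising arm of complex I, had 316, 304 and 332 TPM in Q11 libraries, against 368, 387 and 375 TPM in control libraries. All Q11 libraries lay below all control libraries, and the log2 change was -0.25 ± 0.04 (SE, limma adjusted p = 0.0032). It was -0.30 with the shared reads separated (limma adjusted p = 0.019), and the call held whichever library was left out. In M2 cells Ndufa2 had a log2 change of -0.05 against control cells and did not pass. Uqcrc2, the second core subunit of complex III, had 231, 236 and 237 TPM in Q11 libraries, against 200, 210 and 194 TPM in control libraries, a log2 change of 0.22 ± 0.06 (SE, limma adjusted p = 0.038). Uqcrc1 averaged 240 ± 2.44 TPM in Q11 cells and 217 ± 2.19 TPM in control cells (SD, n = 3 each; limma adjusted p = 0.011). Uqcrc1 and Uqcrc2 were also called with the shared reads separated (limma adjusted p = 0.019 and 0.045). The other 5 were not: Ndufs8, Sdhd, Atp5a1, the gamma subunit Atp5c1 and the stalk subunit Atp5o had limma adjusted p of 0.026 to 0.048 with all reads and 0.052 to 0.089 with the shared reads separated. Without Q11 replicate 2 the 8 nuclear calls came to 1, which was Ndufa2. Ends of the range that did not pass were Ndufb4 (log2 change 0.12), Sdhb (-0.02), Uqcrq (-0.08), Cox4i2 (-0.21), Cox6a2 (0.20) and Atp5md (-0.08). The calls came to 2 without Q11 replicate 1, Q11 replicate 3 or Ctrl replicate 3, to 3 without Ctrl replicate 1 and to 4 without Ctrl replicate 2.

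Several subunits exist in paired forms that differ between tissues, and in these macrophages the broadly expressed form was the higher one in each group. Cox4i1 averaged 974 ± 16.7 TPM in Q11 cells, 1038 ± 20.4 TPM in M2 cells and 1010 ± 22.9 TPM in control cells (SD, n = 3 each). The hypoxia-linked Cox4i2 was at 0.3 to 2.8 TPM, from 1 to 11 recovered reads per library. Cox6a1 averaged 950 TPM over all libraries and its heart and muscle form Cox6a2 5.7 TPM. The muscle form Cox7a1 was at 18.1 to 33.1 TPM, against 339 to 390 TPM for Cox7a2, and Cox7a2l was at 327 to 374 TPM. Ndufa4, now counted as a complex IV subunit, averaged 303 TPM. Of the 3 genes for subunit c, Atp5g3 had 419 TPM, Atp5g2 336 TPM and Atp5g1 63.3 TPM, over exon models of 2181, 1675 and 4912 bases. Of the 100-base stretches of Atp5g2, 34.7% also stand in a gene elsewhere. Of all these forms, only Atp5g3 in M2 against control cells passed the test. Cox6a2 and Cox4i2 gave the extremes of complex IV in M2 against control cells, with log2 changes of 0.54 ± 0.27 and -0.39 ± 0.41 (SE), from few reads.

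**Figure D5:**
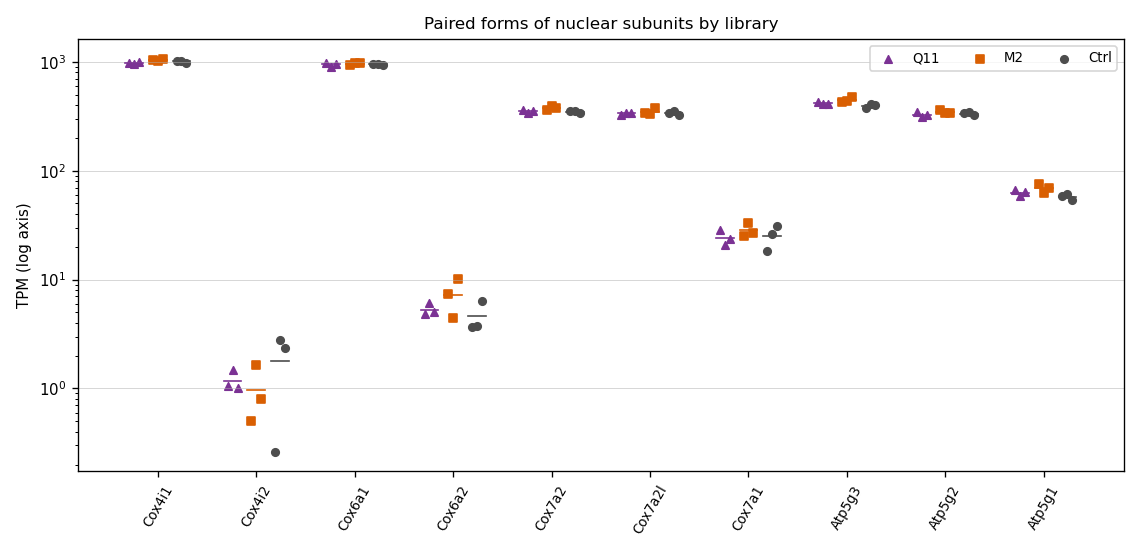
TPM per library (log axis) of paired forms of nuclear subunits, with Q11, M2 and Ctrl from left to right and a bar at each group's mean. Cox4i1 lies between 955 and 1059 TPM and Cox4i2 between 0.3 and 2.8 TPM, and Cox4i2, Cox6a2 and Cox7a1 lie below their partner forms in every library.

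The promoters of the nuclear genes were read for motifs of factors known to act on respiratory genes. RefSeq start sites of GRCm38.p6 were found for 67 of the 85 nuclear subunit genes (Cox7a2l was not looked up). In the window of 250 bases before and 50 after the start, on both strands and counting each motif by itself even where 2 overlap, the ETS motif CCGGAAG bound by GABP stood in 17 (25.4%), against 9.9% of 27025 genes. The NRF1 motif GCGCATGCG stood in 8 (11.9%), against 2.0% of genes, the YY1 motif AAGATGGCG in 7 (10.4%), against 1.6%, and the SP1 motif GGGCGG in 26 (38.8%), against 38.2%. Of the nuclear genes that rose in M2 cells and have a RefSeq start site, 3 held an ETS motif in the window, Ndufs8, Sdhd and Uqcr11. Atp5b, Atp5d, Atp5g3, Ndufa10, Ndufb10, Sdha and Uqcrc1 rose too and held none. Uqcrc1 and Uqcr11 held the NRF1 motif. Whether any motif goes with the rise was not tested. In Ndufs8 the ETS motif lies after the start and is not shown. For Sdhd and Uqcr11, where the ETS motif lies before the start, 60 bases around it are given (Sdhd, chr9:50603862-50603921, and Uqcr11, chr10:80406854-80406913). Both are on the minus strand, with the ETS motif in capitals, in Sdhd as its reverse complement.
Sdhd: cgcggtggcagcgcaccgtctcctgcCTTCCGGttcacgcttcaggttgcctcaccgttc
Uqcr11: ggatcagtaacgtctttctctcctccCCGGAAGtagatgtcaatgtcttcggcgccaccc
A match is a description of the sequence only. Gabpa, the DNA-binding part of GABP, averaged 25.4 TPM in M2 cells and 26.8 TPM in control cells, a log2 change of -0.08 ± 0.08 (SE). Nrf1 had 15.6, 15.7 and 15.9 TPM in M2 libraries, against 15.6, 13.9 and 14.5 TPM in control libraries. Neither passed the test in any of the 3 comparisons.

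Genes around the chain were read as lists. Of 8 electron carriers and subunits outside the name pattern, 1 rose in M2 against control cells, where 6.88% of all genes did, and 1 in Q11 against control cells, where 5.19% did. Both times it was Cyc1, the cytochrome c1 of complex III, with 484, 483 and 517 TPM in M2 libraries, against 440, 437 and 435 TPM in control libraries (log2 change 0.18 ± 0.03, SE, limma adjusted p = 0.0085). Cycs, the mobile cytochrome c, did not pass. Of 35 assembly factors of complexes II to V, 5 rose in M2 cells and none fell, against 6.88% and 5.75% of all genes. Bcs1l, which inserts the Rieske protein into complex III, had 36.1, 38.9 and 39.7 TPM in M2 libraries, against 28.5, 29.9 and 30.7 TPM in control libraries, a log2 change of 0.35 ± 0.05 (SE, limma adjusted p = 0.0014). The other 4 were factors of complex IV, namely Cox14, Cox10, Taco1 and Cox19, with log2 changes of 0.22 to 0.26. In Q11 against control cells 2 of 35 rose, Bcs1l and Atpaf2, a factor of complex V, against 5.19% of all genes.

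Of 16 assembly factors of complex I, 1 rose in M2 against control cells (Tmem126b, log2 change 0.18), a share near the 6.88% of all genes. In Q11 against control cells 3 rose (Ndufaf6, Tmem126b and Ecsit) and 1, Ndufaf3, fell, with 32.4 ± 1.11 TPM in Q11 cells and 38.9 ± 1.54 TPM in control cells (SD, n = 3 each; log2 change -0.25, limma adjusted p = 0.0072), against 5.19% of all genes called higher and 5.53% lower. Of 31 genes for replication, transcription and RNA handling in mitochondria, 3 rose in M2 against control cells (Tbrg4, Elac2 and Grsf1, which process or bind mitochondrial RNA), against 6.88% of all genes. In Q11 against control cells 4 rose (Tbrg4, Grsf1, Mtpap and Supv3l1), against 5.19% of all genes. Tfam, which packages mitochondrial DNA, had 29.7, 26.7 and 30.2 TPM in M2 libraries, against 30.2, 28.7 and 28.5 TPM in control libraries, and did not pass. The mitochondrial RNA polymerase Polrmt had a log2 change of 0.20 ± 0.06 (SE, limma adjusted p = 0.070) in M2 against control cells.

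Of 15 nuclear regulators tested, 1, Myc, rose in M2 against control cells, where 6.88% of all genes did, and 3, Nfe2l2, Hif1a and Ppard, fell, where 5.75% did. Myc, a driver of growth that also acts on mitochondrial genes, averaged 22.3 TPM in M2 cells and 14.9 TPM in control cells (log2 change 0.56 ± 0.08, SE, limma adjusted p = 0.0020). Hif1a, the oxygen-sensing factor, had 46.3, 51.2 and 42.2 TPM in M2 libraries, against 59.4, 54.3 and 62.4 TPM in control libraries (log2 change -0.33 ± 0.07, SE, limma adjusted p = 0.020). In Q11 against control cells Myc rose and Nfe2l2 and Ppard fell, against 5.19% of all genes called higher and 5.53% lower, and Hif1a did not pass. The coactivator Ppargc1b had a log2 change of 0.19 ± 0.07 (SE, limma adjusted p = 0.11) in M2 against control cells. Of 8 genes for coupling and nucleotide exchange, the ADP/ATP carriers Slc25a5 and Slc25a4 and the phosphate carrier Slc25a3 rose in M2 against control cells, with log2 changes of 0.11, 0.08 and 0.16. These 3 are abundant, and the share called higher was 6.88% over all genes and 19.6% over genes at 100 TPM or more. In Q11 against control cells 1 of the 8, Slc25a5, rose, against 5.19% of all genes. No gene of these lists was called in Q11 against M2 cells (limma).

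The other mitochondrially encoded RNAs, 17 rRNAs and tRNAs with enough signal, had a median log2 change of 0.05 in M2 against control cells. mt-Rnr1 had 475, 571 and 298 TPM in M2 libraries, against 562, 486 and 579 TPM in control libraries, and mt-Rnr2 had 742, 863 and 587 TPM in M2 libraries, against 798, 706 and 790 TPM in control libraries. M2 replicate 3 was the lowest of the 9 libraries for both, and neither passed the test. The tRNA gene mt-Tr was called lower in M2 and in Q11 against control cells, but from 1, 1 and 2 recovered reads in control libraries and none elsewhere, so no fold is given. rRNAs and tRNAs are poorly captured by poly-A selection.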

How the data were processed

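Per the labels' protocols, poly-A RNA was prepared with the NEBNext Ultra kit. The submitters' processing notes name GRCm38, StringTie 1.3.3b and HISAT2 2.0.5. TPM values of 26157 genes were deposited by the authors as 1 table. TPM multiplied by GENCODE M21 exon lengths came in whole reads (tolerance 0.1 read) for 98.8% to 99.1% of low values, which gave the reads per library. 25594 gene IDs were matched to GENCODE M21. With 9 libraries in 3 groups, limma 3.58.1 in R 4.3.3 was fitted to log2(TPM + 1) with 1 mean per group and a trend, over the 14207 genes that reached 1 TPM in 3 or more libraries, two-sided, Benjamini-Hochberg over all genes, threshold 0.05. This scale understates changes of low genes. The fit was tested only on simulated independent libraries, with changes larger than most of those reported here. That test does not bear on calls of small changes or on shared reads. Shared stretches of 100 bases were searched in annotated genes (Python 3.11.15, numpy 2.4.6, pandas 2.3.3, matplotlib 3.10.9). Alternatives were the pseudocount, filters, quantile and median-ratio scaling, scaling over nuclear genes, separation of shared reads, only the 2 groups compared, no trend, limma-voom on recovered reads, a replicate block and leaving out each library. Members, lists and the rule for named genes were chosen with earlier results of these data known. Named were all mitochondrially encoded and Sdh genes, called members, the extremes of each complex in each comparison, the 5 highest nuclear genes, paired forms and called genes of the other lists. Cox6b1 and Cox7b in Q11 against M2 cells, and Cycs, Tfam, Polrmt, Ppargc1b, Gabpa, Nrf1 and the mitochondrial rRNAs, fall outside this rule and were picked with their values in view.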

Additional observations from a re-analysis of the deposited data

How the results depend on the processing

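With 3 libraries per group and changes of mostly under 0.3 on the log2 scale, calls lie near the threshold. Of the nuclear subunit genes, 11 were called in M2 against control cells, and 5 with no filter, 5 after quantile normalization, 7 with the shared reads separated, 5 with only the groups compared, 3 with no trend, 15 with a filter at 5 TPM, 13 with limma-voom on recovered reads and 5 to 12 when 1 library was left out. Of the mitochondrially encoded genes, 1 was called, and 0 with no filter, 0 after quantile normalization, 3 with limma-voom on recovered reads and 0 to 3 when 1 library was left out. Their median log2 change of -0.20 was -0.080 after quantile normalization and -0.21 to -0.12 when 1 library was left out. mt-Co1 holds the first rank in every library, so quantile normalization sets it to the same value in all 9. In Q11 against control cells 8 nuclear genes were called, and 3 with no filter, 3 with the shared reads separated, 2 with no trend and 1 to 7 when 1 library was left out. In Q11 against M2 cells limma-voom called 1 mitochondrially encoded gene. The cause of these differences was not tested. No effect shared by same-numbered libraries was visible, as their deviations correlated at -0.031 to 0.036. This does not show that they were prepared apart, which the labels do not say. A replicate block gave 8 nuclear calls and 1 mitochondrially encoded call in M2 against control cells, and 3 nuclear calls in Q11 against control cells. The medians of nuclear genes and the differences of the log2 ratio moved by less than the spread between libraries in every alternative run, including a ratio over 7 mitochondrial genes that was added after seeing the data. For the ratio with 1 of 3 libraries left out this was bound to hold, because the spread includes the library left out. Those runs are thus no measure of stability by this yardstick. In Q11 against control cells both values lie near 0 and changed sign in some alternatives. Over all members and alternatives, calls were lost 80 times and gained 22 times in M2 against control cells, lost 67 times and gained 6 times in Q11 against control cells and gained 1 time in Q11 against M2 cells, and no gene called with all libraries changed sign.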
